A study of Mus musculus with 2 samples.

Results

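Myoc-high fibroblasts are Dcn-rich cells of the mouse RPE, choroid and sclera preparation that carry many copies of Myoc, the gene of the secreted glycoprotein myocilin. The cells were selected on measured values, the counts of UMIs (unique molecular identifiers, tags that mark single RNA molecules) of 8 genes. CPM below means UMIs of a gene per 1000000 UMIs of the cell or of the summed cells. A cell counted as a fibroblast with at least 5 Dcn UMIs, at least 2000 CPM of Dcn (decorin, a collagen-binding proteoglycan) and under 10 UMIs of Rpe65, the visual cycle isomerase of the retinal pigment epithelium (RPE). Fibroblasts with 2 or more UMIs of Kera, 3 or more of Cxcl9 and Cxcl10 together, or 3 or more of Tnmd and Chad together were set aside. Of the remaining cells, those with at least 1000 CPM of Myoc were the members. They numbered 991 in control and 787 in Dox, 1778 of 35627 kept cells and of 19821 fibroblasts. Levels of Myoc, Dcn and the other genes of this rule are therefore given as a description of the selection.

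Myocilin belongs to the olfactomedin-domain proteins, is secreted by cells of the trabecular meshwork, ciliary body and sclera, and is known for mutations that cause glaucoma. Fibroblasts of the outer eye coat lay down collagen, proteoglycans and glycoproteins of the sclera and choroid. They also set the local supply of retinoic acid, growth factor binding proteins and chemokines.

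The cells came from male C57BL/6J mice 3 months of age, taken 7 days after 1 µl was injected under the retina, either PBS (control) or doxorubicin at 100 ng/µl (Dox), a drug that damages DNA. All mice received an injection, and there was no group of uninjected mice. Per the study the injected fluid reaches only part of the RPE, while the whole RPE, choroid and sclera complex was dissociated, so tissue outside the injected area is in both libraries. In each group 10 eyes of 5 mice were pooled into 1 library, and the mouse of a cell is not known. With 1 library per condition there was no test between control and Dox, and treatment, injection and library cannot be told apart. The 95% intervals below cover counting error only (exact Poisson intervals of summed UMIs, Clopper-Pearson intervals of shares of cells, and conditional binomial intervals of ratios). The libraries held 117731270 UMIs (control) and 103997248 UMIs (Dox) over all barcodes, of which the members held 5847634 and 4560316.

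The label was checked against marker genes. Aldh3a1, which the rule did not use, an aldehyde dehydrogenase abundant in the corneal stroma and one of the 3 genes given as markers of these cells, stood at 157 CPM (interval 147 to 168) in control members and 141 CPM (130 to 152) in Dox members. In Myoc-low fibroblasts, the 13329 cells that passed the same rule with under 1000 CPM of Myoc, it stood at 42.7 and 40.9 CPM. In fibroblasts with 3 or more UMIs of Tnmd and Chad, a class described further on, it stood at 217 and 253 CPM, above the members. The 12 fibroblast markers reached 10 CPM in the members of both libraries. Myoc and Dcn among them were fixed by the rule, and those it did not use included Col1a1 at 737 and 762 CPM, Col1a2 at 746 and 741 CPM and Pdgfra at 136 and 134 CPM. Proliferation markers were nearly absent, with a summed 5.30 CPM (control) and 2.85 CPM (Dox) over 5 genes.

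The upstream sequences of 2 genes are shown, Myoc because it defines the cells and Cyp26a1, the enzyme that breaks down retinoic acid, because it was among the 12 genes highest in members over Myoc-low fibroblasts. Each is the 250 bases before the gene start in RefSeq (build GRCm38.p6), both on the plus strand, Myoc at chr1:162638900-162639149 and Cyp26a1 at chr19:37697558-37697807. Capitals mark TATAAA, the letters of a TATA box, in Myoc, and AGTTCA read on the opposite strand (TGAACT), a form of the half-site of retinoic acid receptors, in Cyp26a1.
Myoc: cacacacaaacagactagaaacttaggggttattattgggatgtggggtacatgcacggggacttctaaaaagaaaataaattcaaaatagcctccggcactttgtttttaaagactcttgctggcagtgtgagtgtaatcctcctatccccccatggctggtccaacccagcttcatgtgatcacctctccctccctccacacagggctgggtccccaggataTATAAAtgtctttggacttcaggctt
Cyp26a1: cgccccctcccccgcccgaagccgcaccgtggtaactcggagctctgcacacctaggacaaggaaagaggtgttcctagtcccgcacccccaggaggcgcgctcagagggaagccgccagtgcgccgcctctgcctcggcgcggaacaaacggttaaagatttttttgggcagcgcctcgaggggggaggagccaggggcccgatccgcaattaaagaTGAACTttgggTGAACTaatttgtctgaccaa

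Motifs were searched on both strands in the 250 bases before each start. TATAAA occurred in 12.4% of 32851 upstream sequences, AGTTCA in 11.8%, TGTTTAC (a forkhead core) in 3.17% and AGAACA (a glucocorticoid receptor half-site) in 16.1%. A pair of AGTTCA copies in the same direction with 5 bases between them, each copy also counted under AGTTCA, occurred in 7 sequences (0.0213%), Cyp26a1 among them. The Myoc sequence held TATAAA alone of the 5 patterns. Of the 12 genes highest in members over Myoc-low fibroblasts, 9 had an upstream sequence. Among these 9, TATAAA occurred in 1, AGAACA in 1, TGTTTAC in 0 and AGTTCA in Cyp26a1 only. These are matches of letters and describe the sequences only.

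Myoc itself spanned a wide range among the members. The median cell held 4053 CPM (control) and 4219 CPM (Dox), with quartiles at 2129 and 8446 CPM in control and at 2098 and 8367 CPM in Dox. The highest cells reached 41310 CPM in control (381 UMIs at most in a cell) and 43163 CPM in Dox (393 UMIs at most). The Myoc gene lies on chromosome 1 from 162639155 to 162649693 (GENCODE vM21, GRCm38, the build also called mm10). Members made up 8.64% of fibroblasts in control (8.14% to 9.17%) and 9.42% in Dox (8.80% to 10.1%). These 2 intervals overlap.

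**Figure D1:**
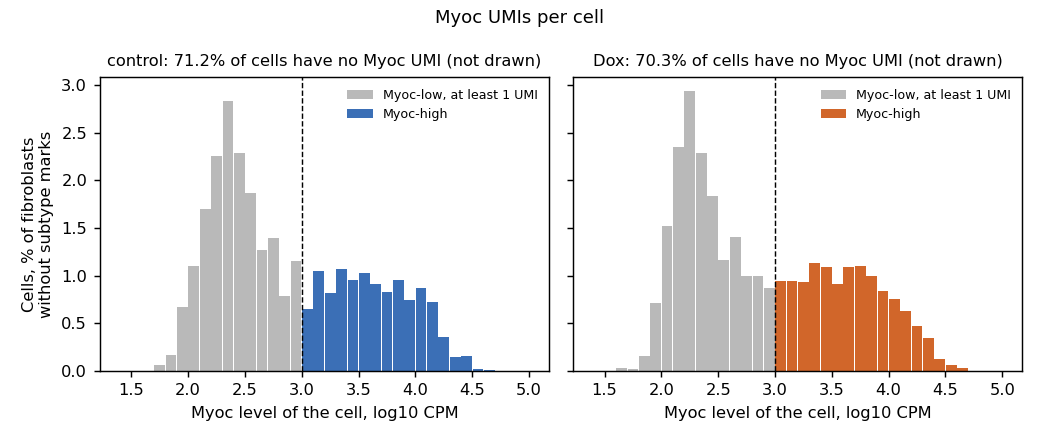
Myoc per cell among fibroblasts without Kera, Cxcl9 or Cxcl10, or Tnmd or Chad marks, as log10 CPM on the horizontal axis and percent of those cells on the vertical axis, with control on the left and Dox on the right. Grey bars are Myoc-low cells with at least 1 Myoc UMI, coloured bars are the members, and the dashed line is the 1000 CPM limit. No gap separates the classes at the limit, and 71.2% (control) and 70.3% (Dox) of the cells had no Myoc UMI and are not drawn.

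The limit cut through a continuous range of values. From 750 to 1000 CPM there were 115 control and 66 Dox cells, with medians of 870 and 875 CPM, and from 1000 to 1250 CPM there were 56 and 55 members, with medians of 1113 and 1149 CPM. Thbs4, which encodes the matrix protein thrombospondin-4, stood at 244 CPM (control) and 219 CPM (Dox) just outside the limit, and at 299 and 227 CPM just inside it. Lum, the proteoglycan lumican, stood at 1180 and 1232 CPM just outside and at 1088 and 1377 CPM just inside. Chil1, a chitinase-like glycoprotein, rather stood higher just inside, at 2415 CPM (2247 to 2592) against 1239 CPM (1157 to 1326) in control and at 1739 against 1446 CPM in Dox. Des, the intermediate filament desmin, stood at 12.6 CPM (3.43 to 32.2) just inside and 64.0 CPM (46.3 to 86.2) just outside in control, and at 55.9 and 47.1 CPM in Dox. Aldh3a1 stood lower just inside in both libraries. It was at 97.5 CPM (66.2 to 138) against 150 CPM (122 to 183) in control, and at 122 against 153 CPM in Dox. Some genes were thus close on both sides of the limit and others were not.

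Members were deep cells as a rule, with a median of 5909 UMIs in control and 5641 in Dox against 4706 and 5385 in Myoc-low cells, but they included more shallow cells. Under 2000 UMIs stood 12% of control and 17.3% of Dox members, against 4.99% and 4.15% of Myoc-low cells. A cell with under 1000 UMIs passes the Myoc limit with 1 UMI, and 16 control and 20 Dox members had only 1 Myoc UMI. The median mitochondrial share of members was 1.32% in control and 1.19% in Dox.

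Cells of other types, which can take up free RNA in their droplets, also held some Myoc UMIs. With each cell thinned to 2000 UMIs, a Myoc UMI was found in 5.52% of 308 control T and natural killer (NK) cells and 7.14% of 196 Dox ones, cells that should lack the gene (12.3% and 10.6% before thinning, at medians of 3583 and 3758 UMIs). Here and below, thinning left out cells with under 2000 UMIs. These included 119 control and 136 Dox members, and 388 and 230 Myoc-low cells. Among Myoc-low fibroblasts the thinned shares were 10.2% and 9.41% (19.8% and 19.7% before thinning), and among members 99.1% and 99.4%. Summed over cells, Myoc stood at 32.4 and 27.0 CPM in T and NK cells, 70.1 and 64.8 CPM in Myoc-low fibroblasts and 6380 and 6571 CPM in members.

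Members were compared with the Myoc-low fibroblasts of the same library, and a gene counted as higher or lower when its CPM ratio passed 1.5-fold the same way in both libraries. Of 3022 genes tested, 98 were higher (3.24%) and 190 lower (6.29%), with the genes of the rule left out. The median log2 ratio of all genes tested was 0.08 in control and 0.09 in Dox. Because the cells were split on Myoc, these differences describe the 2 classes, and no p-value was computed.

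The 12 highest genes are given first by what they encode, beginning with matrix proteins. Thbs4 was at 453 CPM (control) and 441 CPM (Dox) in members, against 53.4 and 51.7 CPM in Myoc-low cells, log2 ratios of 3.08 (3.00 to 3.17) and 3.09 (3.00 to 3.19). Comp, the thrombospondin of cartilage and tendon, was at 84.8 and 63.4 CPM against 15.6 and 15.1 CPM. Smoc2, a calcium-binding matricellular protein related to SPARC, was at 95.3 and 96.0 CPM against 17.2 and 20.02 CPM. Both libraries thus placed all 3 genes over 4-fold above the Myoc-low cells. Adamtsl3, a matrix protein related to the ADAMTS proteases, and Crispld1, a secreted cysteine-rich protein, had log2 ratios of 1.97 and 2.03, and of 1.99 and 2.04, in control and Dox.

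Among enzymes, Cyp26a1 (chromosome 19, 37697798 to 37701536) stood at 325 CPM (control) and 310 CPM (Dox) in members, against 72.9 and 60.9 CPM in Myoc-low cells, log2 ratios of 2.16 (2.07 to 2.24) and 2.35 (2.25 to 2.45). Thinned to 2000 UMIs, 32.3% of members in each library held a Cyp26a1 UMI, against 7.22% and 6.83% of Myoc-low cells and 0.974% and 0% of T and NK cells. The 0 of 196 Dox T and NK cells allows a share of cells with a UMI of up to 1.53% (3 counts of the total) or 1.86% (upper Clopper-Pearson limit). Cyp2f2, a cytochrome P450 known for metabolism of foreign compounds, stood at 149 and 147 CPM against 20.4 and 19.0 CPM. Both P450 genes were close between the libraries.

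Other secreted products followed. Chil1 reached 2575 CPM (control) and 2165 CPM (Dox) in members against 456 and 495 CPM in Myoc-low cells, log2 ratios of 2.50 and 2.13. It was also present at 38.6 and 91.1 CPM in T and NK cells. Igfbp6, which binds insulin-like growth factor II, stood at 1611 and 1494 CPM against 378 and 322 CPM. Pi16, a peptidase inhibitor known as a marker of adventitial fibroblasts, stood at 725 and 794 CPM against 157 and 187 CPM. Members held these 3 RNAs at over 4-fold the Myoc-low level in both libraries, and Shisa3, an inhibitor of Wnt and FGF receptor maturation, at 4-fold or more (119 and 120 CPM against 27.7 and 29.8 CPM).

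Gpha2, the alpha subunit of thyrostimulin, had the highest ratio of all, at 68.1 and 105 CPM against 1.44 and 6.80 CPM. It came from few cells. A UMI of it was found in 4.64% of control and 2.54% of Dox members, and 1 Dox member held 342 of the 478 Gpha2 UMIs there. The Gpha2 log2 ratio in the library nearer 0 was 3.94, but 2.74 without the cell that held the most of each gene. Cyp2f2 was at 2.78 in that setting, so Gpha2 was no longer the highest.

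The 12 genes lowest in the members, relative to Myoc-low cells, are given next. Des, known from muscle and pericytes, stood at 19.8 CPM (control) and 18.2 CPM (Dox) in members against 136 and 140 CPM, log2 ratios of -2.78 (-3.06 to -2.52) and -2.94 (-3.28 to -2.63). T and NK cells held 20.9 and 21.4 CPM of it, close to the members. Alkal2, a ligand of the receptor kinase ALK, stood at 43.3 and 29.6 CPM against 234 and 271 CPM. Ccl11, the eosinophil chemokine eotaxin, stood at 25.5 and 20.8 CPM against 136 and 115 CPM. Pappa2, a protease that cleaves IGF-binding proteins, stood at 15.7 and 21.9 CPM against 78.3 and 107 CPM.

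Cp, the ferroxidase ceruloplasmin, stood at 23.4 and 27.2 CPM against 106 and 113 CPM. Ndufa4l2 and Cox4i2, subunits of the respiratory chain known to respond to low oxygen, had log2 ratios of -1.94 and -1.98, and of -1.86 and -1.94, in control and Dox. Errfi1, an inhibitor of the EGF receptor, stood at 154 and 137 CPM against 579 and 634 CPM, and Adamts4, an aggrecan-cleaving protease, at 43.1 and 37.9 CPM against 175 and 142 CPM. Col23a1, a transmembrane collagen, had log2 ratios of -2.00 and -2.59, Arrdc3, an arrestin-domain protein, of -2.02 and -2.26, and Lag3, an inhibitory receptor best known from T cells, of -2.05 and -2.12. The 12 lowest genes were below the Myoc-low level in both libraries.

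**Figure D2:**
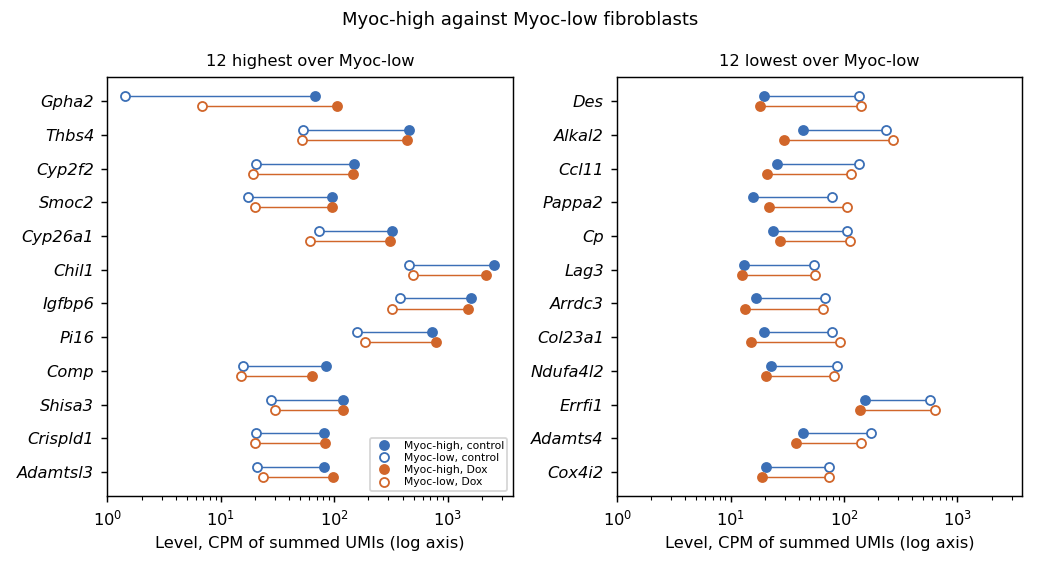
Level in CPM (log axis) of the 12 highest and the 12 lowest genes of the members relative to Myoc-low fibroblasts, with filled points for members, open points for Myoc-low cells, blue for control and orange for Dox. Thbs4 sits near 450 CPM in the members of both libraries against about 50 CPM in Myoc-low cells, and Des shows the opposite order.

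Gene lists were read by their counts beside the 3.24% higher and 6.29% lower of all genes. In the collagen list, which does not hold Col23a1 (lower in the members, as given above), 4 of 14 tested genes were higher and none lower, with a median log2 ratio of 0.47 in control and 0.46 in Dox. Col12a1, a collagen that coats fibrils, stood at 146 and 143 CPM against 51.6 and 48.6 CPM, and Col11a1, which nucleates fibrils, at 164 and 188 CPM against 95.4 and 108 CPM. Col8a2 and Col6a3 were the other 2. The fibril collagens Col1a1 and Col1a2 had log2 ratios of 0.52 and 0.57 in control and of 0.51 and 0.49 in Dox, short of 1.5-fold.

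Of 5 leucine-rich proteoglycans, Fmod (fibromodulin, which shapes collagen fibrils) was higher, at 80.7 and 79.8 CPM against 28.5 and 27.2 CPM, and Lum was lower, at 852 and 864 CPM against 2175 and 2050 CPM. A Lum UMI was found in 62.5% of control and 59.6% of Dox members, against 95.6% and 95.7% of Myoc-low cells. Thinned to 2000 UMIs the shares were 51.9% and 53.9% against 91.2% and 90.6%, so a large part of the members gave no Lum UMI at a depth where nearly all Myoc-low cells gave one. T and NK cells gave a Lum UMI in 6.49% and 7.65% of cells at that depth.

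Of 22 matrix glycoproteins, Comp, Smoc2 and Vit were higher, while Sparcl1 and Mgp, an inhibitor of calcification, were lower (Mgp at 2969 and 3018 CPM against 4506 and 4662 CPM). This list does not hold Thbs4, which was higher in the members as given above. Of 15 matrix proteases and inhibitors, Serpinf1, the anti-angiogenic factor PEDF, was higher at 2097 and 2119 CPM against 1058 and 1078 CPM, and Adamts1 was lower. That list does not hold Adamts4 and Pappa2, which were lower in the members as given above. Chil1 and Apod, a lipid carrier, were the 2 higher genes of 8 in a list of angiopoietin-like and other ocular secreted proteins. Igfbp6 was the only one of 5 genes of the IGF axis past 1.5-fold, and Dkk2, a Wnt antagonist, the only one of 3. Cfb, a complement protease, was higher, at 53.5 and 55.9 CPM against 20.96 and 25.5 CPM.

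In the aldehyde and retinoid list, which does not hold Cyp26a1, 2 of 8 genes were higher. These were Aldh3a1 and Crabp2, a protein that carries retinoic acid to its receptors, at 160 and 152 CPM against 69.1 and 68.0 CPM. Transcription factors of the periocular mesenchyme went both ways. Foxd1 stood at 62.4 and 80.9 CPM against 24.2 and 28.7 CPM, Foxc2 at 51.6 and 56.1 CPM against 18.8 and 17.7 CPM and Prrx1 at 137 and 165 CPM against 72.6 and 82.4 CPM. Tbx18, Nr2f1 and Ebf1 were the 3 lower genes of the 14, with Tbx18 at 14.9 and 12.5 CPM against 50.5 and 53.1 CPM.

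Immediate early genes, which rise within minutes of a stimulus, were the list with the most lower members, at 10 of 20 with none higher and medians of -0.64 and -0.60. Zfp36, which destabilises cytokine messages, stood at 3437 and 3267 CPM against 7799 and 7681 CPM. Nr4a1, an orphan nuclear receptor, stood at 1558 and 1478 CPM against 3642 and 3928 CPM, and Junb at 6398 and 6348 CPM against 11526 and 11740 CPM. The members were still rich in these RNAs, since Fos and Junb were among their 10 highest genes outside mitochondrial and ribosomal protein genes, with Dcn, Gm42418, Fth1, Igfbp4, Igfbp5, Myoc, Eef1a1 and Ubb.

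Chemokines and cytokines had 6 of 9 genes lower and none higher, with medians of -1.08 and -1.62. Cxcl12, which retains leukocytes in tissue, stood at 321 CPM (control) and 367 CPM (Dox) in members against 1102 and 1128 CPM, and Cxcl1, which recruits neutrophils, at 1050 and 969 CPM against 2517 and 2355 CPM. The other 4 were Il6, Ccl11, Ccl7 and Ccl2. Genes known to respond to glucocorticoids, the hormones that induce Myoc in trabecular meshwork, had 5 of 11 lower and none higher (Per1, Mt1, Sgk1, Cebpd and Errfi1). Cebpd stood at 3750 and 3142 CPM against 7995 and 7353 CPM and Mt1 at 3500 and 3327 CPM against 5925 and 5781 CPM.

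In the remaining lists, none of 17 genes of the secretory pathway and endoplasmic reticulum passed 1.5-fold, with Hspa5, the chaperone BiP, at 653 and 743 CPM against 700 and 801 CPM. Of 13 interferon genes Ifit1 and Irf1 were lower, and of 7 p53 targets Perp was higher and Cdkn1a and Btg2, a gene also in the immediate early list, were lower. Of 7 contractile genes Tpm1 was higher and Myl9 and Des lower. Among 4 relatives of Myoc in the olfactomedin family, Olfml2a was lower, at 68.7 and 71.9 CPM against 121 and 144 CPM, and none was higher.

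Markers of other cells were given by their summed levels in the members. RPE markers summed to 2781 CPM (control) and 4184 CPM (Dox) in members (Ttr the most abundant, at 1854 and 2892 CPM), against 3579 and 5391 CPM in Myoc-low cells and 4968 and 6894 CPM in T and NK cells. Endothelial markers summed to 33.9 and 37.7 CPM. The smooth muscle and pericyte list summed to 1268 and 1274 CPM, against 1044 and 782 CPM in Myoc-low cells. In T and NK cells the same list summed to 662 and 588 CPM. All 6 genes of the list (Myh11, Acta2, Rgs5, Notch3, Cspg4 and Des) reached 10 CPM in the members of both libraries. The single values of Acta2, Notch3 and Cspg4 are not given here. The most abundant gene of the list was Rgs5, a regulator of G protein signalling, at 802 and 912 CPM against 353 and 310 CPM in Myoc-low cells. Des was close to its level in T and NK cells. Myh11, the smooth muscle myosin, was at 26.7 and 14.5 CPM against 58.8 and 25.2 CPM in Myoc-low cells.

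The members varied among themselves with their Myoc level. Members of at least 2000 UMIs (872 in control, 651 in Dox) were split into quartile bands of Myoc CPM within each library, with median Myoc from 1526 to 12838 CPM in control and from 1515 to 13549.5 CPM in Dox. Median depth was alike over the bands, from 6194.5 to 6427 UMIs in control and from 6407 to 6613 UMIs in Dox. The bands come from the same counts as the rule, and the trends are descriptions.

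Cyp26a1 rose over the bands from 200 CPM through 258 and 311 CPM to 546 CPM in control and from 152 CPM through 291 and 326 CPM to 500 CPM in Dox. Thbs4 went from 306 to 610 CPM and from 224 to 750 CPM between the lowest and the highest band, Aldh3a1 from 128 to 250 CPM and from 93.9 to 202 CPM, and Rgs5 from 648 to 1189 CPM and from 604 to 1170 CPM. Galr2, a galanin receptor, went from 27.0 to 58.5 CPM and from 19.5 to 66.8 CPM. Mgarp, Tenm3, Prss12, Thsd4, Shisa3 and Smoc2 were also among the 12 steepest rises, and apart from Gpha2 no single member held more than 5.85% of the UMIs of any of them. Gpha2 peaked in the third band, at 171 and 326 CPM, and was at 52.9 and 2.78 CPM in the highest.

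Lum went the other way, from 1171 through 989 and 750 to 544 CPM in control and from 1214 through 901 and 851 to 535 CPM in Dox. Errfi1 fell from 215 to 90.2 CPM and from 197 to 57.5 CPM, and Zfp36 from 4423 to 2737 CPM and from 4514 to 2619 CPM. The steepest falls were those of Cd74, H2-Aa, H2-Eb1 and H2-Ab1, which encode the antigen presentation machinery of immune cells. Cd74 went from 871 to 47.2 CPM and from 584 to 30.6 CPM, but 1 cell held 39.1% of its UMIs in control members and 1 cell 78.2% in Dox members. Clec3b, the plasminogen-binding protein tetranectin, was the remaining steep fall, from 107 to 35.2 CPM and from 197 to 40.8 CPM.

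**Figure D3:**
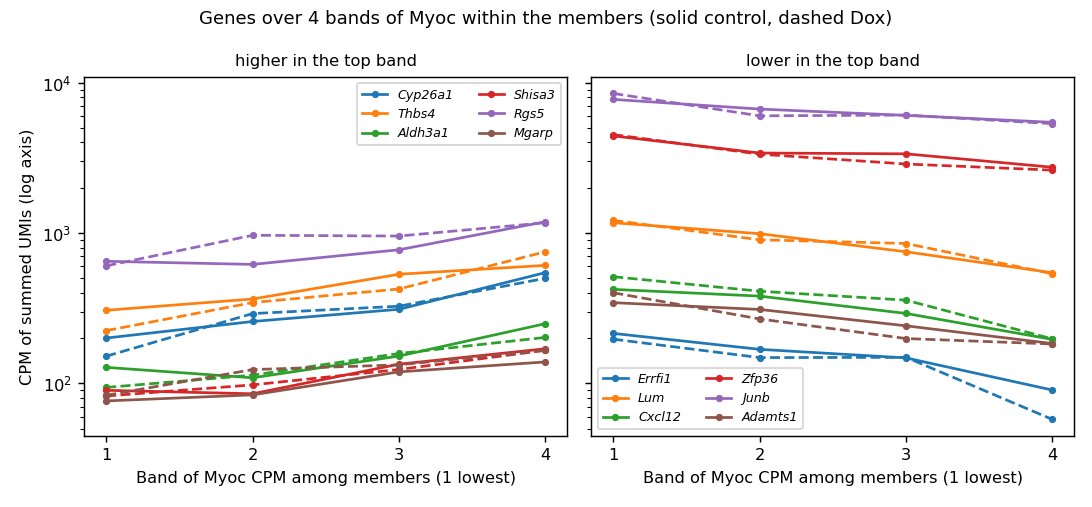
Level in CPM (log axis) of 12 genes over the 4 bands of Myoc within the members, from band 1 with the lowest to band 4 with the highest Myoc, with solid lines for control and dashed lines for Dox. The 6 genes on the left end higher in band 4 than in band 1 in both libraries (Cyp26a1 from 200 to 546 CPM in control), and the 6 on the right end lower.

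The class most like the members was the 1188 fibroblasts with 3 or more UMIs of Tnmd and Chad, genes of tendon and cartilage. They were left out by the rule, yet 71.6% of them in control and 72.4% in Dox held at least 1000 CPM of Myoc, and they carried 54.5% and 56.6% of all Myoc UMIs in fibroblasts, against 37.4% and 36.9% in the members. They were deeper, with medians of 8344 and 8883.5 UMIs. By the rule the classes differ in counts of Tnmd and Chad, which rise with depth, and in the Myoc limit, which was set for the members only. In addition 240 control and 172 Dox members held 1 or 2 UMIs of Tnmd or Chad.

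Against this class 24 of 2952 genes were higher in the members in both libraries (0.813%) and 79 were lower (2.68%). Clec3b was the highest, at 92.0 CPM (control) and 146 CPM (Dox) in members against 8.6 and 7.36 CPM, though a UMI of it was found in 6.86% and 6.61% of members only. Gpc3, the proteoglycan glypican-3, stood at 1204 and 1513 CPM against 407 and 532 CPM. Foxd1, Smoc2, Shisa3 and Gap43, a growth cone protein, were also higher in the members, at log2 ratios of 0.73 to 1.41. Gpc3 did not separate members from Myoc-low cells, with ratios of 0.08 and 0.17.

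Fmod was lower in the members than in the Tnmd or Chad class, at 80.7 and 79.8 CPM against 676 and 905 CPM. Angptl7, a secreted factor of the cornea and trabecular meshwork, stood at 19.5 and 7.46 CPM against 176 and 236 CPM. Fn1, fibronectin, stood at 28.9 and 39.7 CPM against 204 and 207 CPM, and Tagln, an actin-binding protein, at 215 and 154 CPM against 944 and 696 CPM. Chil1, which was over 4-fold above Myoc-low cells in the members, was at 9125 and 8289 CPM in the Tnmd or Chad class. Cyp26a1, Cyp2f2 and Aldh3a1 were likewise no lower in that class, where a UMI was found (cells thinned to 2000 UMIs) in 39.3% and 39.7% of cells for Cyp26a1, 28.5% and 30.3% for Cyp2f2 and 27.9% and 29.4% for Aldh3a1, against 32.3% and 32.3%, 16.4% and 16.4%, and 21.9% and 19.97% of members. Pi16 and Igfbp6 were close, at 689 and 701 CPM and at 1658 and 1607 CPM there.

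The 3602 fibroblasts with Cxcl9 or Cxcl10 marks resembled Myoc-low cells in these genes. The members were higher in 143 of 3043 genes (4.70%) and lower in 228 (7.49%), led by Smoc2, Gpha2, Pi16 and Thbs4 above and by Ccl11 and Des below. Thbs4 stood at 77.5 and 60.2 CPM in that class.

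**Figure D4:**
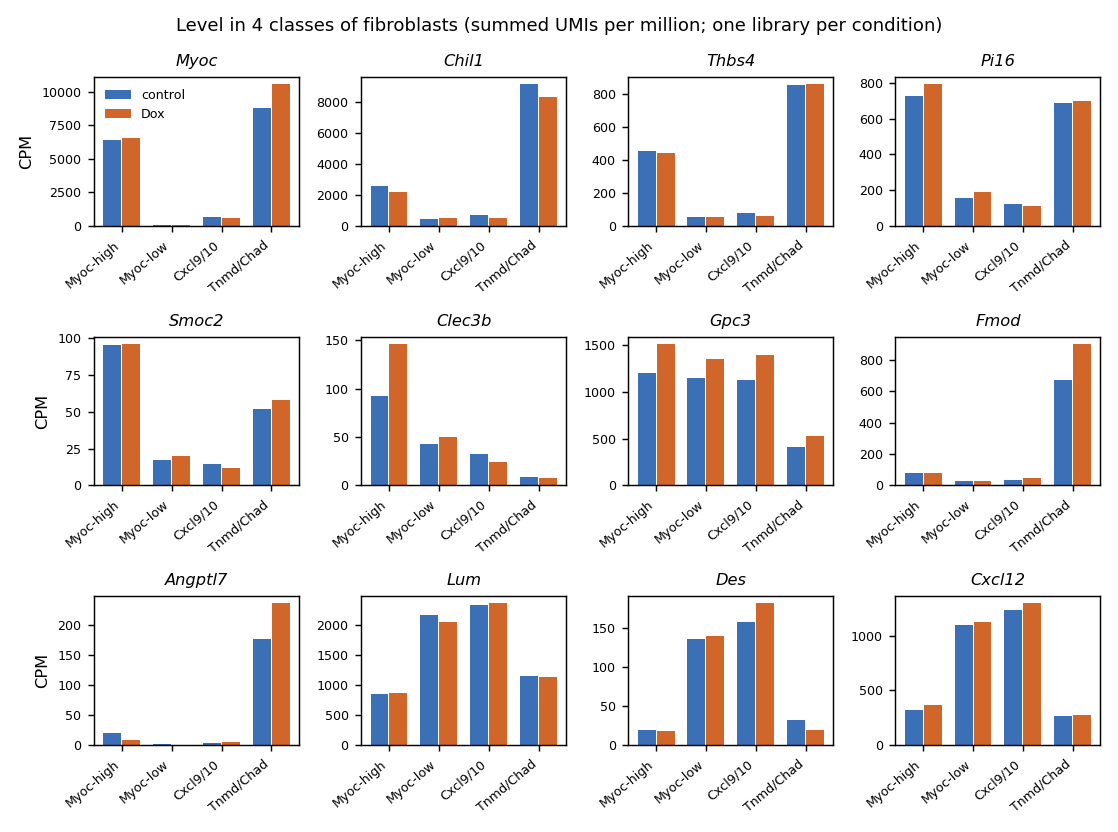
Level in CPM of 12 genes in 4 classes of fibroblasts, with blue bars for control and orange bars for Dox and 1 library behind each bar. Members and the Tnmd or Chad class share high Thbs4 and Pi16 and low Des and Cxcl12, Clec3b and Gpc3 are higher in members, and Fmod and Angptl7 are higher in the Tnmd or Chad class.

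Dox members were set against control members to describe how the 2 libraries differed in these cells 7 days after the injection. Of 3067 genes tested, 13 were at least 1.5-fold higher in Dox (0.424%) and 27 at least 1.5-fold lower (0.880%), and the median log2 ratio of all genes was 0.01. With cells thinned to 2000 UMIs and shallower cells left out, 29 genes were higher. Myoc itself had a log2 ratio of 0.04 (0.02 to 0.06), against -0.11 in Myoc-low cells and 0.26 in the Tnmd or Chad class. This Myoc ratio is bound by the limit of 1000 CPM that chose the cells in each library and is a description. Among the genes higher in members than in Myoc-low cells, the log2 ratios of Dox over control were -0.04 for Thbs4, -0.07 for Cyp26a1, -0.11 for Igfbp6, -0.25 for Chil1 and -0.16 for Aldh3a1. Others of these genes did not fall. By the CPM given above, Pi16 and Foxd1 were higher in Dox, and Smoc2 and Shisa3 were close between the libraries.

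A2m, the protease inhibitor alpha-2-macroglobulin, rose from 20.01 CPM in control to 60.7 CPM in Dox members, a log2 ratio of 1.60 (1.29 to 1.93), and was found in 97 control and 202 Dox members. The ratio was 1.37 in Myoc-low fibroblasts, 1.77 in the Tnmd or Chad class and 1.95 in T and NK cells. Serpina3n, an acute phase protease inhibitor, went from 71.7 to 116 CPM, a log2 ratio of 0.69 (0.51 to 0.88), against 1.27 in Myoc-low cells and 2.57 in T and NK cells. Krt18, Rdh5, Ttr and Atp1b1, with log2 ratios of 0.87, 0.68, 0.64 and 0.63 in the members, had 0.74, 0.64, 0.65 and 0.61 in Myoc-low cells and 0.85, 0.58, 0.53 and 0.35 in T and NK cells. In the members Krt18 was at 0.51 and Atp1b1 at 0.44 with thinned cells, Rdh5 at 0.55 with at least 2000 CPM of Myoc and Ttr at 0.58 with cells of at least 2000 UMIs, each short of 1.5-fold. Ttr and Rdh5 are genes of the RPE. The summed RPE markers went up by 0.59 in log2 in members and in Myoc-low cells and by 0.47 in T and NK cells, and the part of free RNA in these rises was not tested.

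Aspn, the proteoglycan asporin, went from 34.5 to 59.2 CPM, a log2 ratio of 0.78 (0.51 to 1.05), and Ndnf, a neuron-derived secreted factor, from 48.6 to 78.9 CPM, a log2 ratio of 0.70 (0.47 to 0.93). In Myoc-low cells their ratios were 0.43 and 0.49, and whether the classes differ was not tested. With cells thinned, the ratio of Aspn was 0.082 and that of Ndnf 0.55, below 1.5-fold. Clec3b, at 0.67, was at -0.082 with thinned cells and -0.11 as a mean of the cells' own CPM. Gpha2, at 0.62, was at -0.82 without the cell of each library with the most of it. Hbb-bs, a globin of red blood cells, went from 6 to 647 UMIs, of which 1 cell held 622. Hspa1a, a heat shock protein, had a ratio of 0.59, at the edge of 1.5-fold (0.58), and was at 0.40 as a mean of the cells' own CPM and at 0.53 with thinned cells. Inmt, a methyltransferase, was the last of the 13, at 50.6 and 76.1 CPM, also at the edge of 1.5-fold. Centred on the median of all genes, 11 of the 13 stayed past 1.5-fold, and Hspa1a and Inmt did not.

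The 27 genes that fell included 5 of the 6 melanocyte markers. Pmel, the melanosome fibril protein, fell from 572 CPM in control to 96.5 CPM in Dox members, a log2 ratio of -2.57 (-2.71 to -2.42), and Dct, an enzyme of melanin synthesis, from 902 to 220 CPM, -2.03 (-2.13 to -1.94). Mlana, Tyrp1, Ednrb, Slc24a5, Mlph, Cited1 and Gpnmb were also among the 12 largest falls. The 6 melanocyte markers summed to 2335 CPM (control) and 519 CPM (Dox) in members, 2596 and 684 CPM in Myoc-low cells and 3710 and 723 CPM in T and NK cells. Cells marked as melanocytes numbered 2735 in control and 697 in Dox. These values move with the falls in the members, and their part in the result was not tested.

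Lyz2, the lysozyme of macrophages, went from 136 to 26.8 CPM, a log2 ratio of -2.35, with 21.6% of its control UMIs in 1 member. Without the cells that held macrophage, T and NK, endothelial or Schwann markers the ratio was -0.89. The 7 macrophage markers summed to 533 and 239 CPM in the members, with Cd74 the most abundant at 279 and 175 CPM and no marker at 0, and to 574 and 282 CPM in Myoc-low cells. The T and NK markers summed to 44.8 and 4.82 CPM in the members, with Cd3e at 0 in Dox. In Myoc-low cells these markers summed to 56.3 and 45.7 CPM, and whether the classes differ was not tested. Without the cells that held macrophage, T and NK, endothelial or Schwann markers, 14 genes were higher and 21 lower in Dox.

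Of the chemokines, Cxcl2 went from 122 to 29.8 CPM, a log2 ratio of -2.03 (-2.31 to -1.77), Ccl2 from 208 to 105 CPM, -0.98 (-1.13 to -0.83), and Ccl7 from 152 to 94.5 CPM, -0.69 (-0.86 to -0.52). In the list, 3 of the 7 genes tested had thus fallen and none had risen, beside 0.880% and 0.424% of all genes. The ratios were -0.32, -0.25 and 0.02 in Myoc-low cells and -2.09, -0.75 and -0.69 in the Tnmd or Chad class. Whether the Myoc-high and Myoc-low cells differ in these ratios could not be tested. Macrophages were rich in the same RNAs, with Cxcl2 at 9507 and 6267 CPM and Ccl2 at 1187 and 948 CPM, and macrophage markers fell in the members as given above. Without the cells that held macrophage, T and NK, endothelial or Schwann markers the Cxcl2 ratio was -1.57. Of the 27 falls, 21 were called again in that setting, and the ratios of Ccl2 and Ccl7 there are not given here. A Ccl2 UMI was found in 181 of the control and 106 of the Dox members. Sfrp2, a secreted Wnt inhibitor, went from 60.4 to 17.3 CPM, but was found in 39 and 25 members only. Sparcl1 had a log2 ratio of -0.79, with 505 UMIs in control and 228 in Dox.

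With 0.424% of all genes higher and 0.880% lower, a count of 0 in a short list is near the background and is given as a value. No p53 target passed 1.5-fold in the members, with 7 tested, a median log2 ratio of -0.02 and a range from -0.25 to 0.33. Cdkn1a, the p53 target that arrests the cell cycle, stood at 214 CPM (control) and 180 CPM (Dox), a log2 ratio of -0.25 (-0.38 to -0.13), against -0.19 in Myoc-low cells. None of 13 interferon genes and none of 15 collagens passed 1.5-fold, with medians of -0.04 and 0.09. Aspn was the only gene of 6 leucine-rich proteoglycans past it, Sparcl1 the only one of 22 matrix glycoproteins, Sfrp2 the only one of 4 Wnt antagonists and Hspa1a, at the edge of it, the only one of 20 immediate early genes. Secretory (18 tested), glucocorticoid (10), retinoid (9), protease (15), transcription factor (12), IGF (5), contractile (6), olfactomedin (4) and other ocular secreted (8) lists had no gene past 1.5-fold.

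**Figure D5:**
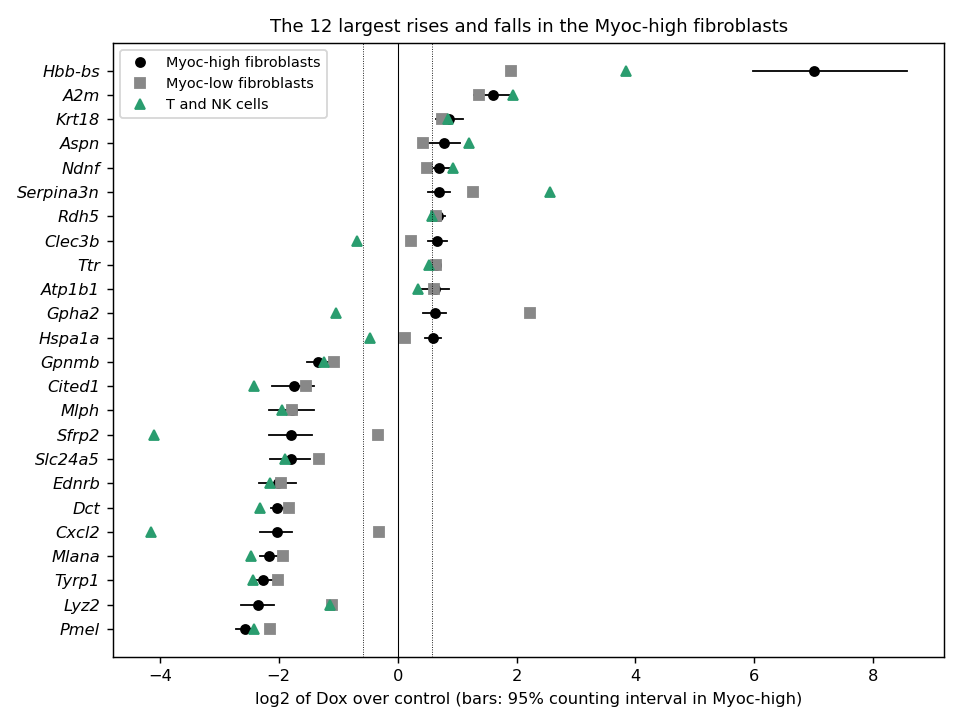
The log2 ratio of Dox over control for the 12 largest rises and 12 largest falls in the members (black points with 95% counting intervals), beside the same ratio in Myoc-low fibroblasts (grey squares) and in T and NK cells (green triangles), with dotted lines at 1.5-fold. Pmel (-2.57 in members) and the other pigment genes lie close together in all 3 kinds of cell, while Cxcl2 in Myoc-low cells (-0.32) lies apart from the members.

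Barcodes were compared between the libraries, since 441 of them occurred in both. Among the members, 17 control and 25 Dox cells carried such a barcode. Without the shared barcodes 98 genes were higher and 190 lower in members than in Myoc-low cells, and 13 were higher and 26 lower in Dox.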

How the data were processed

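Single-cell RNA sequencing of 1 control and 1 Dox library was analysed. The authors aligned reads to mm10 and counted UMIs in Cell Ranger (the file header names version 4.0.0, the methods also a later one), and the deposited values are raw counts of UMIs per gene and cell. Cells with over 500 UMIs, 200 to 6000 genes and a mitochondrial share under 0.2 were kept, 20189 of 20381 in control and 15438 of 15649 in Dox. No doublet caller was run here.

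UMIs were summed per class and library and given as CPM using pandas 2.3.3, scipy 1.17.1 and numpy 2.4.6 under Python 3.11.15. In each library genes needed 50 UMIs over the 2 classes compared and 50 CPM in 1 of the classes. For Dox over control genes needed 50 UMIs over both libraries and 50 CPM in 1 of the libraries. Ratios had 0.5 counts added. Named genes were the 12 highest and 12 lowest, the 12 largest rises and falls with Dox, the steepest genes over the Myoc bands (12 up, 6 down), the 10 most abundant, list members past 1.5-fold and the rule genes. Genes named from the comparisons with the Tnmd or Chad and the Cxcl9 or Cxcl10 classes were chosen after their values were seen. The members and gene lists were chosen with earlier results of these data known. The summing and interval steps were tested on simulated data in which UMIs were drawn independently. That simulation did not cover UMIs that gather in single cells, so it does not show how the intervals behave for such genes. Positions came from GENCODE M21 and figures from matplotlib 3.10.9. T and NK cells were those with at least 2 UMIs of Nkg7, Cd3e and Cd3d, and melanocytes those with at least 5 of Mlana and Pmel, both with under 5 Dcn UMIs. Results of some genes are not reported here.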

Additional observations from a re-analysis of the deposited data

Results flagged for a closer look

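For 2 genes, Dox over control went past 1.5-fold upward in the members and past 1.5-fold downward in another fibroblast class, and the difference was not tested. The log2 ratio of Hbb-bs was 6.997 in the members and -3.09 in the class with Cxcl9 or Cxcl10 marks, with 622 of its 647 UMIs in Dox members in 1 cell. The log2 ratio of Gpha2 was 0.62 in the members, -4.06 in the Cxcl9 or Cxcl10 class and -1.26 in the Tnmd or Chad class, with 342 of its 478 UMIs in Dox members in 1 cell.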

How the results depend on the processing

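The shares of members among fibroblasts, 8.64% in control and 9.42% in Dox, were 6.71% and 7.25% with at least 2000 CPM of Myoc, 7.82% and 8.29% with at least 5 Myoc UMIs, 8.001% and 8.17% with cells of at least 2000 UMIs only, and 6.55% and 7.36% with no UMI of Tnmd or Chad allowed. Leaving out cells with at least 3 UMIs and 500 CPM of markers of any other type left 19 of 33 fibroblasts (57.6%) in control and 10 of 23 (43.5%) in Dox, too few for values of genes, which were not computed there. With a limit of 20 UMIs and 10 CPM on genes, 231 were higher and 418 lower than in Myoc-low cells, and 131 were higher and 152 lower in Dox. With cells thinned, 29 genes were higher in Dox, 6 of them among the 13. The other counts were within 1.5 times of the reported ones. Centring on the median of all genes gave 78 higher and 231 lower. The 12 highest and 12 lowest genes stayed past 1.5-fold the same way under all alternatives that gave values. For 2 genes the ratio changed direction between Dox and control, Clec3b (-0.11 as a mean of cell CPM, -0.082 thinned) and Gpha2 (-0.13 thinned, -0.82 without the top cell). The cause was not tested for Clec3b, and for Gpha2 the top cell held 71.5% of the Dox UMIs. The alternatives without shared barcodes, without Tnmd or Chad UMIs, without the top cell of each gene and without cells holding macrophage, T and NK, endothelial or Schwann markers were chosen after seeing the data. No paired analysis was possible because each condition had 1 library. Depth limits the genes read to those of about 50 CPM, and no replicate spread is known.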

Other observations

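Several genes outside the lists, chosen after their values were seen, also separated members from Myoc-low fibroblasts in both libraries. S100a6, a calcium-binding protein, stood at 5065 CPM (control) and 4878 CPM (Dox) members against 2167 and 2108 CPM. Ptgis, the prostacyclin synthase, stood at 409 and 450 CPM against 172 and 186 CPM. Cd34, a surface sialomucin of progenitors and adventitial fibroblasts, stood at 267 and 287 CPM against 151 and 183 CPM, and Hhip, which binds hedgehog ligands, at 83.3 and 85.7 CPM against 38.5 and 43.4 CPM. Ptch1, the hedgehog receptor, was close, at 54.2 and 61.8 CPM against 49.1 and 57.3 CPM.

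Lower in the members were Abcc9, a subunit of potassium channels (19.8 and 19.1 CPM against 69.1 and 79.3 CPM), Irx3, a homeodomain factor (19.0 and 14.5 CPM against 51.3 and 56.5 CPM), Cysltr1, a leukotriene receptor (20.7 and 18.4 CPM against 72.7 and 76.8 CPM), and Cyp1b1, a P450 enzyme known for congenital glaucoma (42.4 and 49.6 CPM against 116 and 144 CPM).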
